A study of Mus musculus with 12 samples.

Results

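The glycolysis, lactate and pyruvate genes described here are 34 genes named in a fixed list and matched by gene name among the 38887 genes of the deposited table. They comprise 16 glycolytic enzymes, 2 lactate dehydrogenase subunits, 4 glucose and lactate transporters, 5 genes of pyruvate entry and the pyruvate dehydrogenase complex, 4 pyruvate dehydrogenase kinases and 3 enzymes that set fructose-2,6-bisphosphate. Of the 34 genes, 33 reached an RPKM (reads scaled by gene length and library size) of 1 in at least 3 libraries and were tested, and Pdk4 did not.

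RNA had been sequenced from hand-picked mouse retinal ganglion cells to find genes that govern axon regrowth. Opn4 cells (melanopsin ganglion cells) came from Opn4CreERT/+;R26-tdTomatof/f mice, in which Cre made from 1 Opn4 allele switches on a red reporter after tamoxifen, and HB9 cells (ON-OFF direction-selective ganglion cells) came from HB9:GFP mice, picked for their green reporter. The 4 groups of 3 libraries were Opn4 cells 3 days after optic nerve crush, Opn4 cells 3 days after sham surgery, HB9 cells 3 days after crush and HB9 cells 3 days after sham. All mice, HB9:GFP included, had been given tamoxifen (0.124 mg per g body weight on 5 consecutive days starting on postnatal day 21) and were operated on at postnatal day 42; each library was made from 30 cells, pooled from 10 cells of each of 3 animals, and its RNA was amplified before sequencing.

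Glycolysis splits glucose into pyruvate in the cytosol, with a small yield of ATP and of NADH. Pyruvate is then either reduced to lactate by lactate dehydrogenase, which regenerates NAD+, or carried into mitochondria and converted to acetyl-CoA by the pyruvate dehydrogenase complex, which pyruvate dehydrogenase kinases switch off. The retina is known for making much lactate even with oxygen present, a trait ascribed mostly to its photoreceptors, while ganglion cells depend on mitochondrial ATP for their long axons.

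The reporters and the surgery showed in the label genes. Opn4, the melanopsin gene, averaged 1361 ± 63.9 RPKM in Opn4 crush and 1576 ± 281 in Opn4 sham libraries, against 15.3 ± 11.9 in HB9 crush and 8.42 ± 10.5 in HB9 sham libraries (SD, n = 3 each). Mnx1, the gene for HB9, averaged 2.38 ± 1.09 RPKM in HB9 crush and 32.2 ± 10.5 in HB9 sham libraries, and at most 0.144 in any Opn4 library. Atf3, an injury-induced transcription factor, averaged 59.2 ± 17.4 RPKM after crush and 0.0824 ± 0.105 after sham in Opn4 cells, and 540.1 ± 105 after crush and 0.0868 ± 0.0581 after sham in HB9 cells. The libraries had been scaled to between 15104446 and 28195798 reads and held 15021 to 16514 genes at an RPKM of 1 or more. Markers of other retinal cells were present. The summed RPKM of 14 rod genes was 1219 to 3487 in Opn4 crush and 846 to 2251 in Opn4 sham libraries. It was 666 to 1067 in HB9 crush and 327 to 1120 in HB9 sham libraries. The endothelial markers summed to at most 2.19 in any library. Of the 4 genes of the astrocyte list, Gfap, Pax2 and Aldh1l1 stayed below 1 RPKM in all libraries, but S100b did not. The list summed to 10.0 to 41.8 RPKM in Opn4 crush and 8.49 to 53.2 in Opn4 sham libraries. In HB9 cells it summed to 35.4 to 71.2 after crush and 11.5 to 58.3 after sham. Library Opn4 sham 1 stood apart from its group from principal component 2 on (-63.4 against -17.5 and -19.6). Opn4 crush 1 did so from component 3 on (61.9 against 9.04 and 5.92). Opn4 crush 1 also had the highest rod and bipolar cell sums of the 12 libraries (3487 and 344 RPKM). Its mean log2(RPKM + 1) over the Muller glia list was 5.81, against 3.12 and 3.32 in its group. The part of these cell types in the results was not tested.

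The main glycolytic enzymes were among the most abundant mRNAs of both cell classes. Over the 12 libraries, Pkm (pyruvate kinase, the last step) averaged 2715 RPKM, Aldoa (aldolase A) 2595, Tpi1 (triosephosphate isomerase) 1700.3 and Eno2 (neuronal enolase) 1345. Pkm ranked above 99.9% of the genes in the table on this per-length scale, and 9 of the 34 genes averaged over 500 RPKM. Hk1, the hexokinase that starts the pathway in neurons, was lower at 154 RPKM, and Hk2, its inducible relative, averaged 2.55. Pdk4, a kinase known for its response to fasting, was the lowest at 0.219 and was listed at 0 in HB9 crush library 3.

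**Figure D1:**
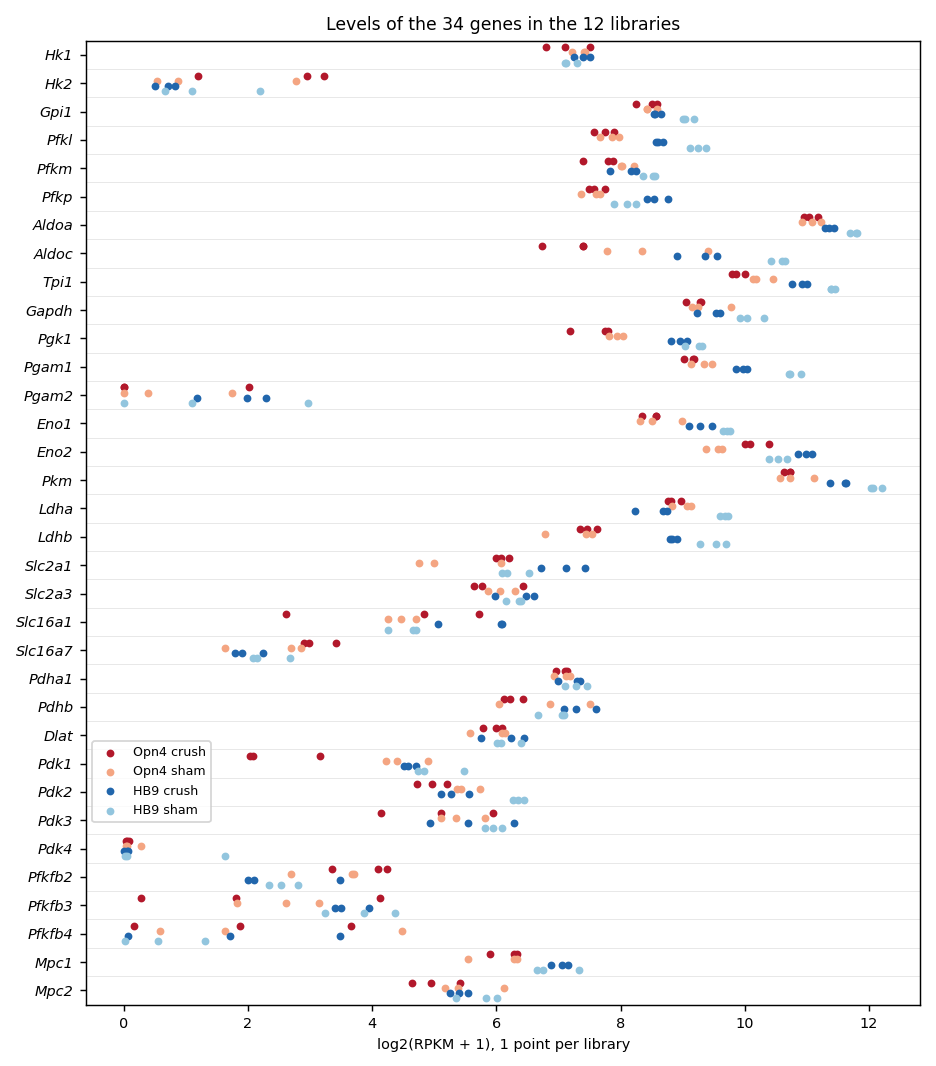
Levels of the 34 genes as log2(RPKM + 1), with 1 point per library and the groups stacked in the order Opn4 crush, Opn4 sham, HB9 crush and HB9 sham within each row. For Pfkl, Tpi1, Pgk1, Pgam1, Pkm and Ldhb the 6 Opn4 points lie left of the 6 HB9 points, and for Pdk1 the 3 Opn4 crush points lie left of all others.

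Levels could be read between genes only in part, because 11 of the 34 genes have near-identical copies among the other genes of the table. A copy was another gene with at least 90% identity to a member's transcripts over at least 50% of the copy and at least 300 bases, and there were 189 such copies in all. Gapdh had 161 copies, which summed to 69738 RPKM against 769 for Gapdh itself. For Eno1, 3 copies summed to 7304 RPKM against 554 for the gene, and for Ldhb the copy Gm5514 stood at 605 RPKM against 379.8. How reads that fit several genes were counted is not given in the sources used here, so the levels of Gapdh, Eno1, Pgk1, Pgam1, Gpi1, Aldoa, Pkm, Ldha, Ldhb, Pdha1 and Mpc1 are uncertain.

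Whether the cell classes differ in this pathway without injury was addressed by the sham libraries. After sham, 16 of the 33 tested genes were lower in Opn4 cells than in HB9 cells and 0 were higher (limma on log2(RPKM + 1) with all 12 libraries, Benjamini-Hochberg adjusted p under 0.05), where 5.93% of all 18269 tested genes were lower and 5.82% higher. The median log2 difference, Opn4 minus HB9, was -0.64 over the 33 genes and 0.01 over all tested genes. The calls covered 12 of 16 glycolytic enzymes, both lactate dehydrogenases, 1 of 5 genes of pyruvate entry and dehydrogenation, 1 of 3 tested pyruvate dehydrogenase kinases, and none of the 4 transporters or the 3 fructose-2,6-bisphosphate enzymes (0 for both). For 20 genes the 3 Opn4 libraries all lay below the 3 HB9 libraries, and for 0 above them, where 15.2% of all genes lay below and 15.5% above.

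Both lactate dehydrogenase subunits were lower in Opn4 cells, by unequal amounts. Ldhb, the heart-type subunit (ENSMUSG00000030246, chr6:142490249-142507957, mm10), was at 186, 172 and 109 RPKM in the Opn4 sham libraries, against 828, 737 and 618 RPKM in the HB9 sham libraries. No Opn4 library came near the lowest HB9 library. The log2 difference was -2.25 ± 0.19 (SE; adjusted p 1.12e-05), a ratio of 0.211. Ldha, the muscle-type subunit (ENSMUSG00000063229, chr7:46841475-46855627), was at 534, 559 and 452 RPKM in Opn4 sham and 819, 777 and 847 RPKM in HB9 sham libraries, and again the groups did not overlap. Its log2 difference was -0.67 ± 0.15 (adjusted p 0.012), but the adjusted p was 0.0524 without Opn4 sham library 3 and 0.0875 under quantile normalization.

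Among the first steps of glycolysis, which trap and prime glucose, the phosphofructokinase genes differed among themselves. Pfkl, the liver-type subunit, was at 202, 231 and 249.2 RPKM in Opn4 sham and 555, 609 and 662 RPKM in HB9 sham libraries, a log2 difference of -1.42 ± 0.14 (adjusted p 2.89e-05). The muscle-type Pfkm was at 256, 258 and 295 RPKM in Opn4 sham and 327, 374 and 366 in HB9 sham libraries and did not pass the test (-0.40 ± 0.16, adjusted p 0.15). The platelet-type Pfkp lay between them with -0.53 ± 0.15 (adjusted p 0.0407). Gpi1, the isomerase before phosphofructokinase, was lower by -0.59 ± 0.13 (adjusted p 0.00889), while Hk1 stood at 168, 172 and 147 RPKM in Opn4 sham and 139, 137 and 156 in HB9 sham libraries, with ranges that overlapped.

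The enzymes that cleave and oxidise the sugar phosphates were lower in Opn4 cells, from the aldolases to Pgk1. Aldoc, the brain aldolase, was at 681, 323 and 218 RPKM in Opn4 sham and 1544, 1608 and 1376 RPKM in HB9 sham libraries (-2.05 ± 0.33, adjusted p 0.00139). Opn4 sham library 1 was high for its group, yet the Aldoc groups did not overlap. The more abundant Aldoa differed less, at -0.69 ± 0.11 (adjusted p 0.00119). Tpi1 was at 1397, 1124 and 1163 RPKM in Opn4 sham and 2675, 2665 and 2813 RPKM in HB9 sham libraries (-1.15 ± 0.12, adjusted p 4.04e-05). Gapdh, the NADH-yielding dehydrogenase, was lower by -0.70 ± 0.18 (adjusted p 0.0203), and Pgk1, which makes the first ATP, by -1.27 ± 0.17 (adjusted p 0.000351).

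The last steps, from phosphoglycerate to pyruvate, showed the same direction. Pgam1, the phosphoglycerate mutase of brain, was at 706, 646 and 559.8 RPKM in Opn4 sham and 1919.8, 1691 and 1679.7 RPKM in HB9 sham libraries (-1.47 ± 0.12, adjusted p 8.44e-06). Pkm was at 2204, 1699 and 1521 RPKM in Opn4 sham and 4199, 4259 and 4754 RPKM in HB9 sham libraries (-1.30 ± 0.14, adjusted p 5.11e-05). For both genes the highest Opn4 library was below the lowest HB9 library. The enolases Eno1 (-1.10 ± 0.17, adjusted p 0.000962) and Eno2 (-1.01 ± 0.13, adjusted p 0.000329) were also lower.

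Downstream of pyruvate the differences were fewer. Mpc1, a subunit of the mitochondrial pyruvate carrier, was lower by -0.86 ± 0.25 (adjusted p 0.042), but its partner Mpc2 was at -0.17 (adjusted p 0.78). Pdk2, a widely expressed pyruvate dehydrogenase kinase, was at 40.4, 42.2 and 52.1 RPKM in Opn4 sham and 75.8, 80.1 and 85.6 RPKM in HB9 sham libraries (-0.83 ± 0.21, adjusted p 0.0223). Pdk3, another kinase of this family, was at 39.96, 33.6 and 55.0 RPKM in Opn4 sham and 66.7, 60.7 and 55.3 in HB9 sham libraries; these did not overlap, but the test was not passed (-0.52 ± 0.42, adjusted p 0.499). The dehydrogenase subunits Pdha1 (-0.20), Pdhb (-0.13) and Dlat (-0.23) did not pass the test. The main neuronal glucose transporter Slc2a3 was at 57.1, 78.1 and 65.4 RPKM in Opn4 sham and 70.3, 81.1 and 83.1 in HB9 sham libraries, and these ranges overlapped. Slc2a1, the transporter of glia and vessels, had a log2 difference of -0.99 ± 0.31 (adjusted p 0.0552), which passed the test without Opn4 sham library 1 (adjusted p 0.00295).

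Other measures moved with this class difference. Of 10 ganglion cell markers, 7 were lower in Opn4 than in HB9 cells after sham and 0 higher, and their summed RPKM was 5117 to 5502 in Opn4 sham and 8795 to 9819 in HB9 sham libraries; their part in the result was not tested. With the mean level of the rod markers as a covariate, 12 of the 16 calls held and those of Gpi1, Pfkp, Pdk2 and Mpc1 were lost. Over all tested genes, 496 were lower and 451 higher with this covariate, against 1084 and 1064 without it. Quantile normalization ended the calls of Ldha, Gapdh (adjusted p 0.0592) and Pfkp (0.0631), and Slc2a1 then passed as lower (0.0376). In such pools, fewer cells of a type and less RNA per cell cannot be told apart. Leaving out 1 library at a time left 12 to 15 calls: Pfkp was lost without Opn4 sham 1 or 3 or HB9 sham 2 or 3 (adjusted p 0.0752 to 0.154), Gapdh without Opn4 sham 2 or 3 or HB9 sham 1 or 2 (0.0566 to 0.0875), Pdk2 without Opn4 sham 1 or 2 or any HB9 sham library (0.0539 to 0.0818), and Mpc1 without Opn4 sham 2 or 3 or any HB9 sham library (0.0537 to 0.169). Over all tested genes, the fits without 1 sham library called 633 to 956 lower and 704 to 996 higher, against 1084 and 1064 in the full fit. In the full fit, 10 of the 11 genes with near-identical copies were called and 6 of the 22 without copies. Among the 187 tested copies themselves 97 were lower in Opn4 cells and 0 higher, but 159 of the 187 are copies of Gapdh. After crush 11 of the 187 copies were lower and 0 higher, where 7.6% of all tested genes were lower. Copies may hold reads of the same gene, so they are not a separate measure.

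**Figure D2:**
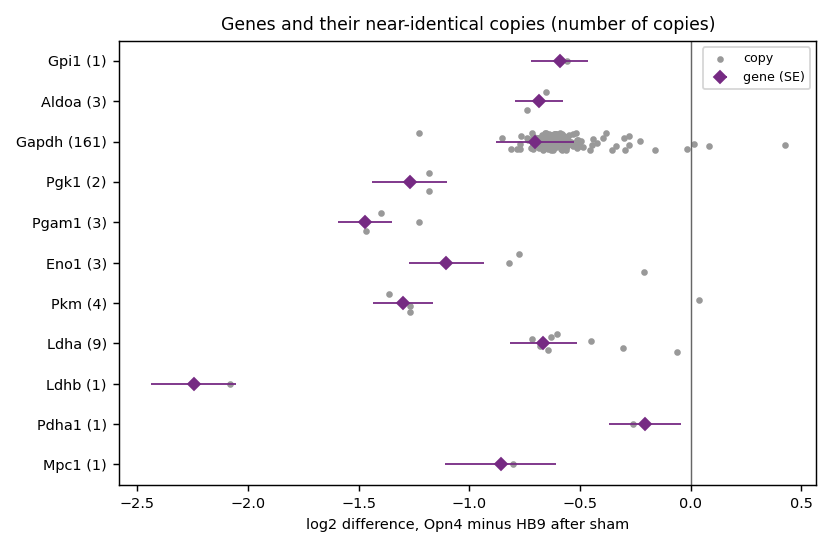
Log2 differences, Opn4 minus HB9 after sham, of the 11 genes with near-identical copies (diamonds, with SE) and of each tested copy (grey points), with the number of copies in brackets. The copy of Ldhb lies at -2.08 beside -2.25 for the gene, and the copies of Gapdh have a median of -0.62 beside -0.70 for Gapdh.

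After crush, the class difference was seen in many of the same genes. Of the 33 genes, 14 were lower in Opn4 crush than in HB9 crush libraries and 0 were higher, where 7.6% of all tested genes were lower and 5.12% higher. The median log2 difference was -0.80 over the 33 genes and -0.12 over all tested genes. The 11 genes called lower after both sham and crush were Pfkl, Pfkp, Aldoc, Tpi1, Pgk1, Pgam1, Eno1, Eno2, Pkm, Ldhb and Mpc1. For 15 genes the Opn4 crush libraries all lay below the HB9 crush libraries, where 17.6% of all genes did so, and for 3 they all lay above, where 12.8% did so. Of the 10 ganglion cell markers 5 were lower and 1 higher in Opn4 cells after crush, with a summed RPKM of 4158 to 4864 in Opn4 crush and 5196 to 5963 in HB9 crush libraries; their part in the result was not tested.

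Pdk1, the pyruvate dehydrogenase kinase known as a target of hypoxia signalling, was called after crush alone. It was at 7.93, 3.21 and 3.09 RPKM in Opn4 crush and 21.8, 22.9 and 25.1 RPKM in HB9 crush libraries, and the groups were far apart. The log2 difference was -2.18 ± 0.36 (adjusted p 0.00184), against -0.51 ± 0.36 (adjusted p 0.429) after sham; the difference between these did not pass the test (adjusted p 0.181). Pdhb, the beta subunit of the pyruvate dehydrogenase E1 enzyme, was at 73.2, 85.0 and 68.8 RPKM in Opn4 crush and 194, 154 and 136 RPKM in HB9 crush libraries (-1.07 ± 0.30, adjusted p 0.0323). Slc2a1 was at 62.7, 72.3 and 66.3 RPKM in Opn4 crush and 170.1, 104 and 138 RPKM in HB9 crush libraries (-0.997 ± 0.31, adjusted p 0.0499), at the edge of the threshold.

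Ldhb kept the wide gap, at 162, 196 and 175 RPKM in Opn4 crush and 479, 453 and 444 RPKM in HB9 crush libraries (-1.37 ± 0.19, adjusted p 0.000602). Ldha was at 501, 449.7 and 433 RPKM in Opn4 crush and 409, 427 and 298 RPKM in HB9 crush libraries, with each Opn4 library above each HB9 library. Its log2 difference of 0.30 ± 0.15 did not pass the test (adjusted p 0.228). Aldoc was at 106, 166 and 166 RPKM in Opn4 crush and 747, 655 and 480.2 RPKM in HB9 crush libraries (-2.10 ± 0.33, adjusted p 0.00127), and Pgk1 had a log2 difference of -1.37 ± 0.17 (adjusted p 0.000238). The Mpc1 call was lost without any 1 of the 6 libraries compared (adjusted p 0.0535 to 0.126), and so was that of Slc2a1 (0.0513 to 0.183), also under quantile normalization (0.0579). The Pdhb call was lost without Opn4 crush 1 or 3 or any HB9 crush library (0.0568 to 0.125), and with the rod covariate all 3 of these calls were lost. Over all tested genes, 1389 were lower and 936 higher in the full fit, against 591 and 433 with the rod covariate. The fits without 1 of the libraries compared called 780 to 1377 genes lower and 576 to 838 higher. Without Opn4 crush library 1, 3 further genes passed the test: Hk2 higher in Opn4 cells (adjusted p 0.0414), and Slc16a1 (0.034) and Pfkfb3 (0.015) lower; Pfkfb2 passed as higher without HB9 crush library 3 (0.0358).

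**Figure D3:**
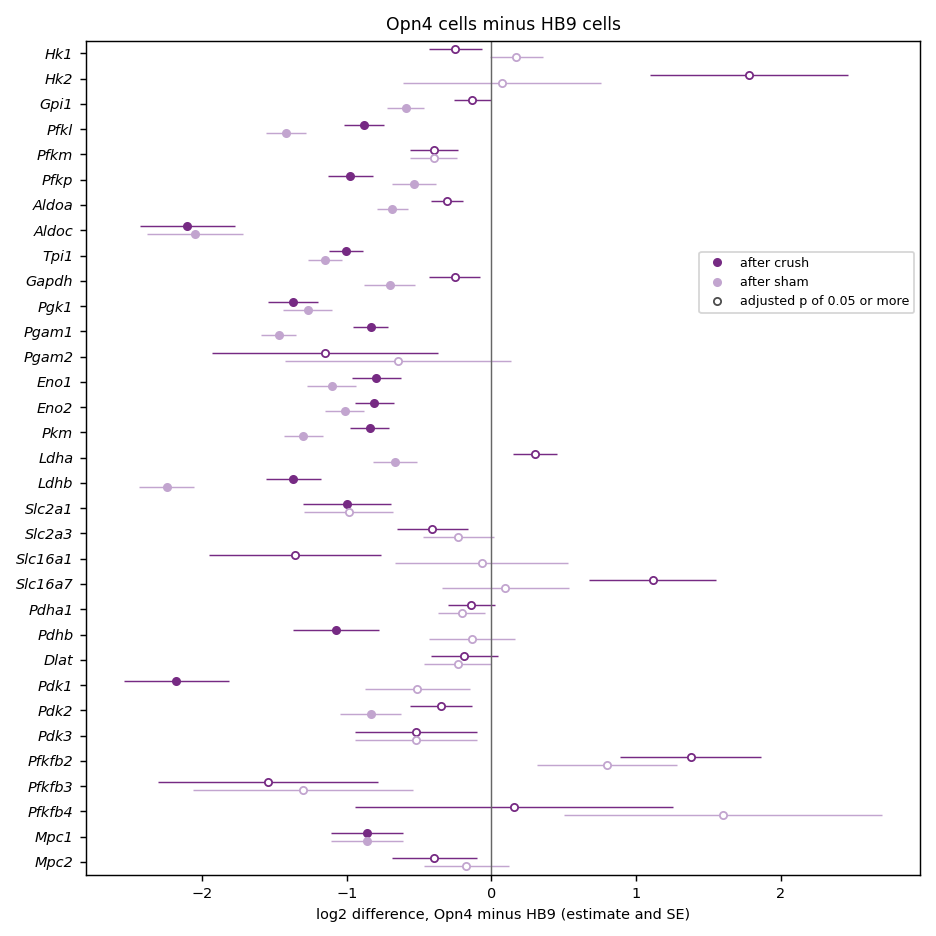
Log2 differences, Opn4 minus HB9, of the 33 tested genes after crush (dark) and after sham (light), with SE from the limma fit. Filled points have an adjusted p under 0.05 and open points do not; every filled point lies left of 0, with Ldhb at -2.25 after sham and Pdk1 at -2.18 after crush.

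The response to axon injury was compared within each class. In HB9 cells 9 of the 33 genes were lower after crush than after sham and 0 were higher, where 2.57% of all tested genes were lower and 3.84% higher. The median log2 difference, crush minus sham, was -0.33 over the 33 genes, while the median of all tested genes was shifted to 0.11. The calls were 7 glycolytic enzymes, Ldha and Pdk2. For 14 genes the HB9 crush libraries all lay below the HB9 sham libraries, where 12.6% of all genes did so, and for 5 they all lay above, where 19% did so.

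Ldha was at 409, 427 and 298 RPKM in HB9 crush libraries, against 819, 777 and 847 RPKM in HB9 sham libraries. Each crush library was far below each sham library. The log2 difference was -1.12 ± 0.15 (adjusted p 0.000632), a ratio of 0.460. Pgam1 was at 1001, 1045 and 929 RPKM in HB9 crush and 1919.8, 1691 and 1679.7 RPKM in HB9 sham libraries (-0.83 ± 0.12, adjusted p 0.00114). These 2 calls held under each alternative that was run, but both genes have near-identical copies. In this comparison 5 of the 11 genes with copies were called and 4 of the 22 without. Of the 187 tested copies 67 were lower after crush and 0 higher, but 159 of the 187 are copies of Gapdh. Ldhb was at 479, 453 and 444 RPKM in HB9 crush and 828, 737 and 618 RPKM in HB9 sham libraries without overlap, but at -0.66 ± 0.19 it did not pass the test (adjusted p 0.0641).

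The other called genes changed less, except Aldoc and Pdk2. Aldoc was at 747, 655 and 480.2 RPKM in HB9 crush and 1544, 1608 and 1376 RPKM in HB9 sham libraries (-1.29 ± 0.33, adjusted p 0.0357). Pdk2 was at 46.3, 33.3 and 37.7 RPKM in HB9 crush and 75.8, 80.1 and 85.6 RPKM in HB9 sham libraries (-1.04 ± 0.21, adjusted p 0.0108). In both genes all crush libraries lay below all sham libraries. Pfkl (-0.63), Pkm (-0.56), Tpi1 (-0.51), Gpi1 (-0.49) and Aldoa (-0.40) completed the list, with adjusted p between 0.0153 and 0.0464. Gapdh, at -0.63 ± 0.18, just missed the threshold and was not called (adjusted p 0.0513).

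Several genes had higher values in HB9 crush libraries without passing the test. Eno2 was at 2025, 1841 and 2154 RPKM in HB9 crush and 1336, 1488 and 1641 RPKM in HB9 sham libraries (0.43 ± 0.13, adjusted p 0.081). Pfkp was at 433, 372 and 343 RPKM in HB9 crush and 237, 273 and 303 RPKM in HB9 sham libraries (0.50 ± 0.15, adjusted p 0.0816). Both had every crush library above every sham library. Slc2a1 (0.82 ± 0.31, adjusted p 0.148) and Slc16a1, the lactate and pyruvate transporter MCT1 (1.21 ± 0.60, adjusted p 0.307), were also above sham in each library, with wide spread among the crush libraries.

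The count of HB9 calls fell when any 1 HB9 library was left out, and it changed with scaling. Over all tested genes, 470 were lower in the full fit and 209 to 312 in the fits without 1 HB9 library. Without HB9 crush library 1, 2 or 3 the count of lower genes was 3, 3 and 4, and without HB9 sham library 1, 2 or 3 it was 4, 3 and 2, where every one of these fits lost the calls of Gpi1, Aldoa, Aldoc and Pkm (adjusted p 0.0557 to 0.157); that of Tpi1 was lost in all but the fit without HB9 crush 2 (0.0543 to 0.0886), that of Pfkl without HB9 crush 1 or 2 or HB9 sham 2 or 3 (0.0542 to 0.0737), and that of Pdk2 without HB9 crush 2 or HB9 sham 3 (0.0522 and 0.054). Under quantile normalization, which ties the most abundant genes to fixed values, Aldoa turned to 0.04 (adjusted p 0.908), and the calls of Pkm (-0.07, 0.847), Tpi1 (-0.13, 0.602), Gpi1 (0.0635) and Pfkl (0.0584) were also lost. Eno2 then passed as higher after crush (0.76, adjusted p 0.014). Over all tested genes 702 were higher and 470 lower in HB9 cells after crush, against 588 and 678 after scaling each library to a common median and 600 and 605 after quantile normalization. Ganglion cell markers moved with the result, with 4 of 10 lower after crush and a summed RPKM of 5196 to 5963 in HB9 crush and 8795 to 9819 in HB9 sham libraries. The Muller glia list summed to 790 to 2163 RPKM in HB9 crush and 417 to 419.7 in HB9 sham libraries. Of its 6 tested genes 1 was higher and 1 lower after crush, and Aqp4 was at 0 in all 6 HB9 libraries. The 6 amacrine markers summed to 50.5 to 131 in HB9 crush and 3.10 to 26.2 in HB9 sham libraries. Among them 1 was higher and 0 lower after crush. The part of these cell types in the result was not tested.

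In Opn4 cells crush left most of the pathway without a called change. Of the 33 genes, 1 was higher and 1 lower after crush than after sham, where 0.69% of all tested genes were higher and 0.421% lower. For 2 genes the Opn4 crush libraries all lay above the Opn4 sham libraries, where 7.38% of all genes did so, and for 6 they all lay below, where 7.33% did so. The median log2 difference was -0.12 over the 33 genes and -0.02 over all tested genes. Pdk1 fell to 7.93, 3.21 and 3.09 RPKM in Opn4 crush libraries, against 28.8, 17.7 and 20.0 RPKM in Opn4 sham libraries. The highest crush library was below the lowest sham library, and the log2 difference was -2.08 ± 0.36 (adjusted p 0.0149), a ratio of 0.236. Eno2 was at 1026, 1085 and 1341 RPKM in Opn4 crush and 758, 790.3 and 659 RPKM in Opn4 sham libraries, again without overlap, and was higher after crush by 0.64 ± 0.13 (adjusted p 0.041).

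Aldoc was at 106, 166 and 166 RPKM in Opn4 crush and 681, 323 and 218 RPKM in Opn4 sham libraries. Its log2 difference of -1.34 ± 0.33 was close to the -1.29 ± 0.33 in HB9 cells. The unadjusted limma p was 0.00144 here and 0.00194 in HB9 cells. After adjustment within each comparison the test was not passed in Opn4 cells (adjusted p 0.0756), except without Opn4 sham library 3 (0.0258). Ldha was at 501, 449.7 and 433 RPKM in Opn4 crush and 534, 559 and 452 RPKM in Opn4 sham libraries, ranges that overlapped (-0.16 ± 0.15, adjusted p 0.678). Pgam1 (-0.19 ± 0.12) and Pkm (-0.10 ± 0.14) did not pass the test either. Slc2a1 was at 62.7, 72.3 and 66.3 RPKM in Opn4 crush and 66.3, 26.0 and 30.9 RPKM in Opn4 sham libraries; it passed as higher without Opn4 sham library 1 alone (adjusted p 0.036). The Eno2 call was lost without any 1 of the compared libraries other than Opn4 crush 1 (adjusted p 0.0522 to 0.116), and the Pdk1 call without Opn4 sham 1 (0.0532). Over all tested genes, the fits without 1 Opn4 library called 96 to 125 higher and 46 to 113 lower, against 126 and 77 in the full fit. When the fit held the 6 Opn4 libraries alone, neither gene passed, but only 7 of all 18269 tested genes were higher and 6 lower.

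**Figure D4:**
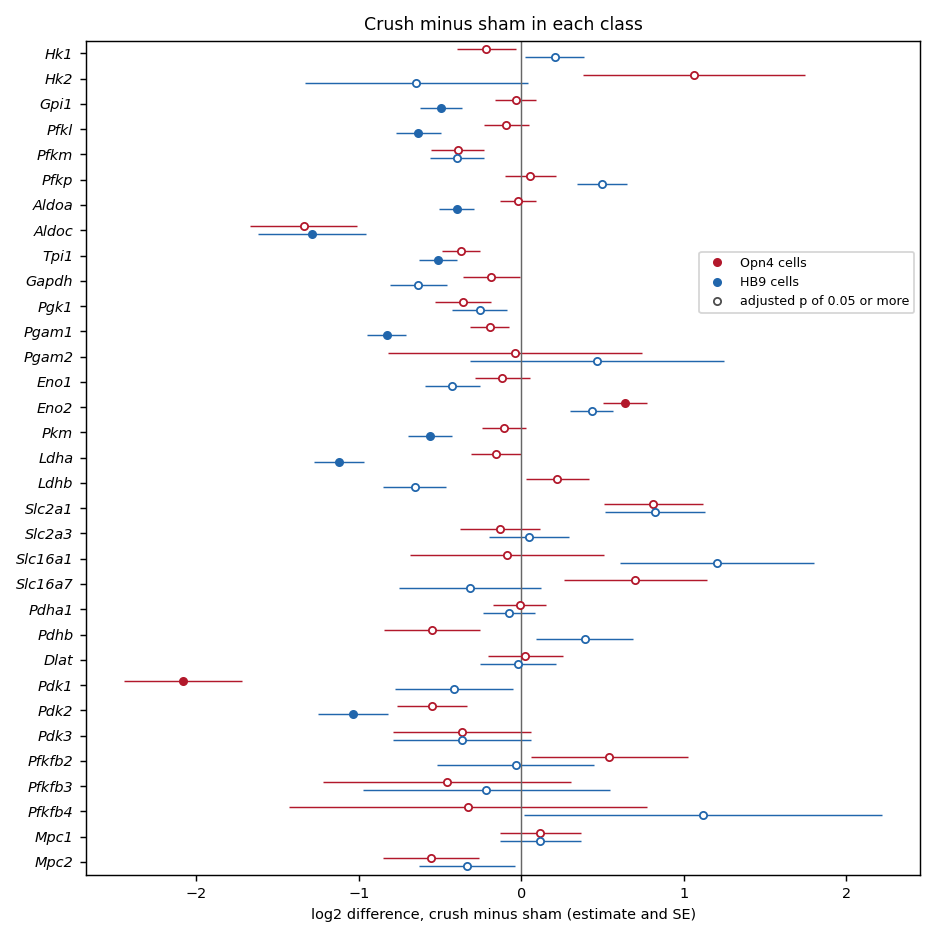
Log2 differences, crush minus sham, of the 33 tested genes in Opn4 cells (red) and HB9 cells (blue), with SE from the limma fit. Filled points have an adjusted p under 0.05: in Opn4 cells these are Pdk1 at -2.08 and Eno2 at 0.64, and in HB9 cells 9 genes, all left of 0, with Ldha at -1.12.

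Whether crush acted differently in the 2 classes was tested as the Opn4 crush effect minus the HB9 crush effect. By limma, 0 of the 33 genes passed, where 0.816% of all tested genes did so. At an unadjusted p under 0.05 there were 9 of the 33 genes and 2351 of the 18269. The smallest adjusted p belonged to Ldha, for which the difference of effects was 0.97 ± 0.21 (adjusted p 0.0607), and 1.10 (0.0419) after scaling to a common median. Ldhb (0.88 ± 0.27), Pgam1 (0.64 ± 0.17) and Pdk1 (-1.67 ± 0.51) followed, with adjusted p of 0.181, 0.122 and 0.181.

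Isozymes of the same step differed in their proportions. Of the summed Ldha and Ldhb RPKM, Ldhb made up 27.8 ± 3.07% in Opn4 crush and 22.9 ± 3.25% in Opn4 sham libraries, against 55.1 ± 4.31% in HB9 crush and 47.0 ± 4.30% in HB9 sham libraries (SD, n = 3 each). All 6 Opn4 libraries lay below all 6 HB9 libraries. Of the summed enolase RPKM, Eno2, the neuronal form, made up 76.1 ± 2.59% in Opn4 crush and 65.3 ± 4.71% in Opn4 sham libraries, and 76.2 ± 3.79% in HB9 crush and 63.9 ± 3.18% in HB9 sham libraries. In both classes each crush library lay above each sham library. These shares are descriptions without a test, and both Ldha and Ldhb, and Eno1 but not Eno2, have near-identical copies.

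Aldoc made up 6.39 ± 1.19% of the summed aldolase RPKM in Opn4 crush and 15.1 ± 6.31% in Opn4 sham libraries, and 19.1 ± 3.08% in HB9 crush and 30.3 ± 2.14% in HB9 sham libraries. Its share was lower after crush in both classes with no overlap. Among the phosphofructokinases the HB9 sham libraries stood out, with Pfkl at 48.5 to 49.7% of the summed RPKM, against 34.4 to 41.9% in HB9 crush libraries, while Pfkp was at 35.0 to 39.5% in HB9 crush and 21.2 to 22.8% in HB9 sham libraries. In Opn4 cells Pfkl was at 32.2 to 37.3% after crush and 32.5 to 33.8% after sham, so these ranges overlapped.

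**Figure D5:**
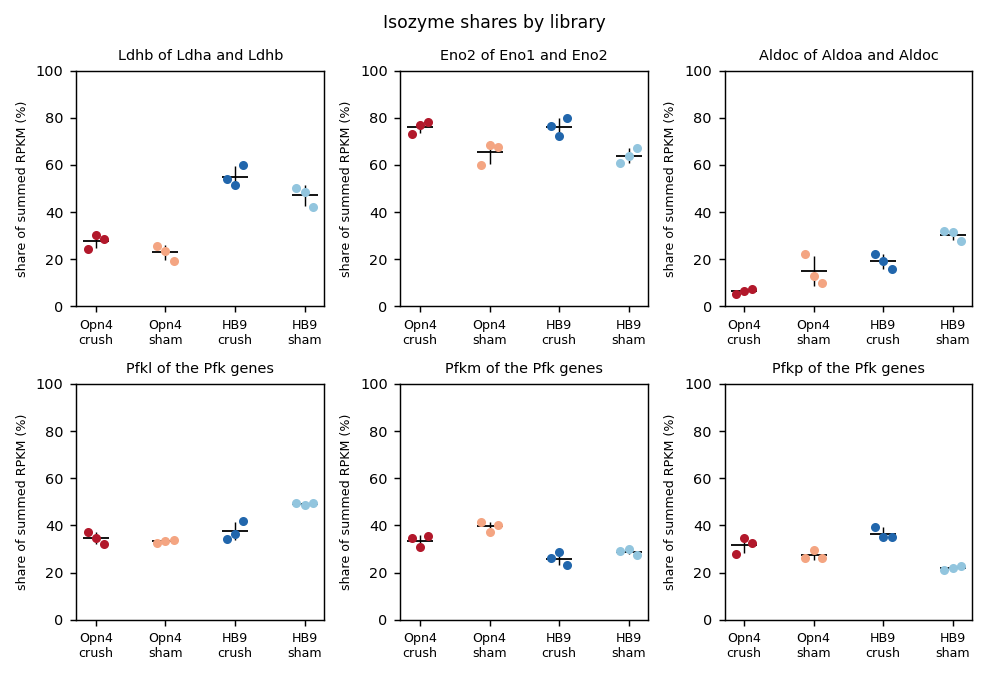
Share of the summed RPKM of an enzyme step held by 1 isozyme, in percent, for each library of the 4 groups, with the mean and SD. The Ldhb share splits by class (27.8% after crush and 22.9% after sham in Opn4 cells, 55.1% and 47.0% in HB9 cells) and the Eno2 share by surgery (76.1% after crush and 65.3% after sham in Opn4 cells, 76.2% and 63.9% in HB9 cells).

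The promoters of these isozyme pairs are shown because the proportions within the pairs differed between groups and because ACGTG and GCGTG are the core letters bound by HIF1, the hypoxia factor that is known to act on many glycolytic genes. The windows run from 250 bases before to 50 bases after the start of the gene in RefSeq (GRCm38.p6, the same build as mm10), 5′ to 3′ on the gene's strand, and capitals mark ACGTG or GCGTG read on either strand. Ldha lies on the plus strand at chr7:46845554-46845853, Ldhb on the minus strand at chr6:142507908-142508207, Eno1 on the plus strand at chr4:150236458-150236757 and Eno2 on the minus strand at chr6:124769624-124769923.
Ldha: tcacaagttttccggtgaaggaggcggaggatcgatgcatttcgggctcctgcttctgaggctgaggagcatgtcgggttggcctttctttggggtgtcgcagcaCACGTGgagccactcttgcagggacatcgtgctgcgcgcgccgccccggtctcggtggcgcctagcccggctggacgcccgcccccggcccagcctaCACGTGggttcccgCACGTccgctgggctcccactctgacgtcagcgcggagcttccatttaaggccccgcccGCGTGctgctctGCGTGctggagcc
Ldhb: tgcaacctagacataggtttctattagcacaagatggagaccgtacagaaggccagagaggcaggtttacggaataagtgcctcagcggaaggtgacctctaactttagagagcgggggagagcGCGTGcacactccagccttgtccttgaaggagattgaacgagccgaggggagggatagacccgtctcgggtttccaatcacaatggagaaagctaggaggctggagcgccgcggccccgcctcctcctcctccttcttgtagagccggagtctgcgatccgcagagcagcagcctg
Eno1: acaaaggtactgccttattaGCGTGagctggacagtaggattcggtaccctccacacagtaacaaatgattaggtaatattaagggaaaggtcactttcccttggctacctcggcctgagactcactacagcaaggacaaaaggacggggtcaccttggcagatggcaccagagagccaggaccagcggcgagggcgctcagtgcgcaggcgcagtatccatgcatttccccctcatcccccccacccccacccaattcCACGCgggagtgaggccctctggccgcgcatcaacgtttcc
Eno2: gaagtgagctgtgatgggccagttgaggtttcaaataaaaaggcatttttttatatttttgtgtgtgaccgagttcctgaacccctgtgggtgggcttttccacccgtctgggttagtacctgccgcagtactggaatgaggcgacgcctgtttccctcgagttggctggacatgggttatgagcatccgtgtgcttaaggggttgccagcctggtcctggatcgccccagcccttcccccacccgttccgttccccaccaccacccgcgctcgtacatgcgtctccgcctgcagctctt
The Ldha window held 7 such sites, counting both readings of CACGTG where they overlap, the Ldhb window 1, the Eno1 window 2 and the Eno2 window 0.

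Of the 34 genes 32 had a promoter in the RefSeq table, and 24 of the 32 (75%) held ACGTG or GCGTG on either strand, against 43.8% of all 27025 promoters. ACGTG alone was in 14 of the 32, against 19.7% of all promoters, GCGTG in 19, against 32.5%, and CACGTG, which holds ACGTG on both strands, in 5, against 7.24%. The 32 windows were also richer in GC (median 62.2% against 52.7%) and in CpG (median 20.5 against 7 per window), and both cores contain CG. Slc16a1 had 5 sites, Slc2a1 and Pdk1 2 each, and Pkm, Tpi1 and Hk1 0. A match is only these letters in this window, not a bound site.

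On the chromosomes, 7 of the 34 genes lie on chromosome 6. Eno2 and Tpi1 are 40.9 kb apart there and Gapdh follows after a further 348 kb. After crush Eno2 had a log2 difference of 0.64 ± 0.13 (adjusted p 0.041) in Opn4 cells and 0.43 ± 0.13 (0.081) in HB9 cells. Tpi1 had -0.37 ± 0.12 (0.172) in Opn4 cells and -0.51 ± 0.12 (0.0194) in HB9 cells, so in each class 1 of the 2 genes passed, and the difference between the genes was not tested. Some members overlap other genes, and whether counting used strand is not given in the sources used here. Yod1, opposite Pfkfb2, was at 9.31 RPKM beside 8.65 for Pfkfb2, Gm12868 opposite Slc2a1 at 35.5 beside 80.4, and Gm4482 on the strand of Slc2a3 at 35.3 beside 72.4, so reads of these genes may be shared.

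The least abundant members varied widely between libraries of a group. Pfkfb3, the strongest maker of fructose-2,6-bisphosphate among its family, was at 16.4, 0.212 and 2.49 RPKM in Opn4 crush, 2.54, 5.10 and 7.81 in Opn4 sham, 14.4, 9.50 and 10.3 in HB9 crush and 13.6, 8.45 and 19.7 in HB9 sham libraries. Pfkfb4, its hypoxia-responsive relative, was at 11.7, 0.126 and 2.66 RPKM in Opn4 crush, 21.3, 2.09 and 0.494 in Opn4 sham, 10.1, 0.0448 and 2.25 in HB9 crush and 1.47, 0.0103 and 0.470 in HB9 sham libraries. A single library carried most of the signal in several of these groups. Hk2 was at 1.30, 6.75 and 8.29 RPKM in Opn4 crush and 0.411, 0.636 and 0.766 in HB9 crush libraries, which did not overlap, although the difference did not pass the test (1.78 ± 0.68, adjusted p 0.113). Slc16a7, the neuronal lactate transporter MCT2, was at 9.64, 6.44 and 6.90 RPKM in Opn4 crush and 2.74, 2.46 and 3.75 in HB9 crush libraries, also without overlap and without passing (1.12 ± 0.44, adjusted p 0.122). Pgam2, the muscle mutase, was at or below 6.79 RPKM in all libraries.

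Genes of neighbouring pathways were counted in the same fit, in which 5.93% of all tested genes were lower and 5.82% higher in Opn4 cells after sham, and 7.6% lower and 5.12% higher after crush. Of 9 tested genes of the NADH shuttles, which pass glycolytic electrons to mitochondria, 4 were lower and 1 higher in Opn4 than in HB9 cells after sham, and the same numbers held after crush, with median log2 differences of -0.23 and -0.52. Got1, the cytosolic aspartate aminotransferase, averaged 485 ± 146 RPKM in Opn4 crush and 1252 ± 118 in HB9 crush libraries (-1.41 ± 0.20, adjusted p 0.000684), and Got2, its mitochondrial counterpart, 174 ± 17.8 and 407 ± 23.9 RPKM in the same groups (-1.23 ± 0.16, adjusted p 0.000354). The gene on the other side was Gpd2, the mitochondrial glycerol phosphate dehydrogenase, at 62.6 ± 26.2 RPKM in Opn4 sham and 8.74 ± 1.16 in HB9 sham libraries (2.61 ± 0.45, adjusted p 0.00205). Of 15 tested citrate cycle genes, 2 were lower and 1 higher in Opn4 cells after sham, and 5 lower and 1 higher after crush, with medians of -0.23 and -0.50. Idh3a, of the NAD-linked isocitrate dehydrogenase, was lower (-0.90 ± 0.16 after sham) and Idh2, the NADP-linked form, higher (1.76 ± 0.37).

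Of 18 tested genes of the HIF pathway and its targets, 3 were lower and 1 higher in Opn4 than in HB9 cells after sham (5.93% and 5.82% of all genes), and 1 lower and 0 higher after crush (7.6% and 5.12% of all genes), with medians of -0.60 and -0.53. Bnip3, a mitophagy receptor induced by HIF, averaged 186 ± 25.0 RPKM in Opn4 sham and 647 ± 47.9 in HB9 sham libraries (-1.80 ± 0.15, adjusted p 8.44e-06), and Hif1a 152 ± 53.6 and 325 ± 47.1 RPKM in the same groups (-1.14 ± 0.23, adjusted p 0.00648). In HB9 cells crush gave 2 lower and 1 higher gene of this list (2.57% and 3.84% of all genes), with Bnip3 lower by -0.73 ± 0.15 (adjusted p 0.00958). Among 15 tested energy regulators, 1 was lower in Opn4 cells after sham and 3 after crush, with 0 higher in either and medians of 0.53 and -0.04. They included Esrra, a nuclear receptor of mitochondrial genes (-2.04 ± 0.43 after sham and -1.88 ± 0.43 after crush), and its coactivator Ppargc1a (-3.03 ± 0.68 after crush).

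Of 12 tested genes of other pyruvate and flux enzymes, crush in HB9 cells raised 2 and lowered 0 (3.84% and 2.57% of all genes). Pck2, mitochondrial phosphoenolpyruvate carboxykinase, averaged 68.1 ± 5.18 RPKM in HB9 crush and 9.31 ± 2.53 in HB9 sham libraries (2.78 ± 0.35, adjusted p 0.000435), and Gpt2, the mitochondrial enzyme that interconverts alanine and pyruvate, 26.3 ± 8.51 and 3.77 ± 2.06 RPKM (2.55 ± 0.56, adjusted p 0.0165). After crush 3 genes of this list were lower in Opn4 than in HB9 cells: Pck2, Gpt2 and Dld, the E3 subunit of pyruvate dehydrogenase. Of 9 tested other transporters 1 passed, Emb, a chaperone of lactate transporters, which was lower in HB9 cells after crush (-0.96 ± 0.23, adjusted p 0.0278). Of 11 tested other glycolytic isozymes and sugar-entry genes 1 passed, Pgm2, a phosphoglucomutase, which was higher in Opn4 cells after sham (0.86 ± 0.21) and after crush (0.68 ± 0.21). The 7 tested pentose phosphate genes had 1 lower in Opn4 cells in each class comparison, Tkt after sham and Taldo1 after crush, and the 11 glycogen genes had 1, Gyg, after crush. Crush in Opn4 cells moved 0 of the 107 tested genes of these lists past the threshold by limma. Of all tested genes 0.69% were higher and 0.421% lower, so few calls were to be had among 107 genes. At an unadjusted p under 0.05 there were 23 of the 107 genes, against 2619 of all 18269.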

How the data were processed

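The deposited table holds RPKM values per gene for 12 libraries, computed by the authors from reads placed on mm10; per the submitters' processing notes the tools were TopHat2 2.0.11, Bowtie and edgeR 3.14.0. How the authors treated strand and reads with several matches is not given in the sources used here. RPKM is not a count, so no count model was run; the reads each library was scaled to were recovered from short 1-exon genes, whose values were whole reads within 0.01.

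Values were tested as log2(RPKM + 1) with limma 3.58.1 in R 4.3.3: 1 fit of the 4 group means over all 12 libraries with a trended prior, for the 18269 genes that reached 1 RPKM in 3 or more libraries, and Benjamini-Hochberg adjustment over all of them at 0.05. The pseudocount understates the changes of low genes. Log2 differences are estimate ± SE, levels mean ± SD with n = 3. The fit was tested on simulated data. Near-identical copies were found with BLAST 2.17.0 against GENCODE transcripts. The 34 genes and all other lists were chosen with earlier results of these data known, so counts over them are descriptions. All 34 genes are named whatever they showed, and from each other list up to 4 genes per comparison with the smallest adjusted p. Each library pools 3 animals, and p-values measure the spread between such pools. Alternatives were another pseudocount, other filters, median scaling, quantile normalization, a block for the replicate number, weighted libraries, a rod covariate, a fit of the compared groups alone, and leaving out libraries. Protein sequences were not used here.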

Additional observations from a re-analysis of the deposited data

How the results depend on the processing

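With the replicate number of the titles as a block, 15 genes were called lower in Opn4 cells after sham, 14 after crush, 9 lower in HB9 cells after crush, 0 for the difference of crush effects, and 1 in Opn4 cells after crush (Pdk1), where the Eno2 call was lost. Over all tested genes, the first 3 of these counts were 1019, 1274 and 446, against 1084, 1389 and 470 without the block. In Opn4 cells after crush, 97 of all tested genes were higher and 54 lower, against 126 and 77 without the block. Under the block, Pfkp after sham and Aldoa in HB9 cells also lost their calls, and Gapdh in HB9 cells gained one (adjusted p 0.0494). Same-numbered libraries correlated at -0.02 to 0.08 in their deviations from the group means, and in 14 of 36 comparisons a library correlated best with its own number. With 3 libraries per group these values cannot show whether the numbers mark pairs.

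The count in Opn4 cells after crush, 2, was 1 without a filter on low values, 1 with weighted libraries, 0 in a fit of the compared groups alone, and 1 without Opn4 sham 1 and Opn4 crush 1 together. Over all tested genes, 126 were higher and 77 lower in the full fit. In the same order of settings these were 90 and 52, 63 and 24, 7 and 6, and 99 and 62. The count in HB9 cells after crush, 9, was 5 under quantile normalization (1 higher, 4 lower) and 15 with weighted libraries (3 higher, 12 lower). Over all tested genes, 702 were higher and 470 lower in the full fit. These were 600 and 605 under quantile normalization and 1771 and 1254 with weighted libraries. Under quantile normalization Aldoa turned to 0.0371 in HB9 cells. For the difference of crush effects, median scaling gave 1 call (Ldha), and over all genes 75 higher and 77 lower, against 53 and 96. Leaving out 1 library gave 12 to 15, 11 to 14, 1 to 2, 2 to 4 and 0 to 0 calls for the comparisons of class after sham, class after crush, crush in Opn4 cells, crush in HB9 cells and the difference of crush effects. Where 1 group keeps 2 libraries, the spread is shared with the other groups. Of the calls, 10 of 16 after sham, 11 of 14 after crush, 0 of 2 in Opn4 cells and 2 of 9 in HB9 cells held under every alternative that was run. The cause of these changes was not tested.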
